A study of Mus musculus with 10 samples.

Results

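The 8 genes *Mitf*, *Ednrb*, *Tyr*, *Tyrp1*, *Dct*, *Pmel*, *Mlana* and *Slc45a2* of the melanoblast lineage were followed through bulk RNA-seq of the forming mouse pinna, the outer ear flap, at E14.5 of embryonic development. They were taken by symbol, with earlier results of these data known, as 8 of the 53465 genes in the table. All 8 passed the filter on low counts. Pinna prominences were microdissected from embryos for 5 wild-type (WT) and 5 *mEC1dup/dup* libraries, the latter labelled knock-in, in which CRISPR/Cas9 editing had placed an extra copy of the enhancer mEC1 on each allele. mEC1 lies in the enhancer cluster that controls *Hmx1*, a homeobox transcription factor gene. The tissue is whole, so each library mixes fibroblasts, cartilage, muscle, epidermis, vessels, nerve and pigment cells, and the extra enhancer copy is carried by every cell of the embryo rather than by melanoblasts alone. In a mixed tissue, fewer cells of a type and less RNA per cell cannot be told apart.

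Melanoblasts are the embryonic precursors of melanocytes. They arise from the neural crest, partly by way of Schwann cell precursors on growing nerves, migrate through the dermis and enter the epidermis and hair follicles, with the signals KIT ligand and endothelin 3 needed on the way. The transcription factor MITF then switches on the genes that build the melanosome, the organelle in which melanin is made: the enzymes TYR, TYRP1 and DCT, the fibril protein PMEL, the membrane protein MLANA that helps it mature, and transporters such as SLC45A2.

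Total counts per library ran from 17536112 to 18265354 in WT and from 17461544 to 18462073 in *mEC1dup/dup*. *Hmx1* had 376 to 526 counts in the WT libraries and 976 to 1356 in the *mEC1dup/dup* libraries, a log2 fold change of 1.31 (SE 0.10, adjusted p = 0.000127), so this gene did not go against the labels. *Xist*, which is expressed from the inactive X chromosome of female cells, had 2 to 5 counts in WT but 0, 2096, 12812, 18165 and 19040 counts in *mEC1dup/dup*. The embryonic share of globin counts, which falls as blood formation matures, was 18.4% to 23.3% in WT and 32.5% to 35.6% in *mEC1dup/dup*, so that genotype cannot be told apart from embryo maturity, nor for most libraries from sex.

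None of the melanoblast genes passed the test between genotypes, although all 8 fitted values were below 0. The median log2 fold change of the 8 genes was -0.24, a lower level in *mEC1dup/dup*, against 0.00 (-0.00415) over the 16426 genes tested. With 1 library left out, the median of the 8 genes ran from -0.28 to -0.16. With the embryonic share of globin counts as a covariate, it turned to 0.45, with 6 of the 8 genes above 0. That share does not overlap between genotypes, so this fit cannot separate maturity from genotype. Its SEs were wide, from 0.36 (*Dct*) to 1.62 (*Tyrp1*), against 0.10 and 0.34 for these genes without the covariate. No direction is read from it. Levels are given as CPM, the share of a library's counts scaled by its effective size, and a gene was called where its adjusted p did not exceed 0.05 and its average log2 CPM was 1 or higher. By that rule edgeR's quasi-likelihood test called 0 of 8 members, beside 2.64% of all genes tested. DESeq2's Wald test and limma-voom also called 0. At an unadjusted p under 0.05 there were 2 members, *Mlana* and *Dct*, both lower in *mEC1dup/dup*, beside 9.08% of all genes in that direction and 16.2% in either. Values below 0 are common in this table, at 51.2% of all genes tested. The 95% intervals of the other 6 members included 0. The members were spread over a wide range of expression, and *Mlana* and *Tyrp1* lay below the level at which a gene could be called.

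**Figure D1:**
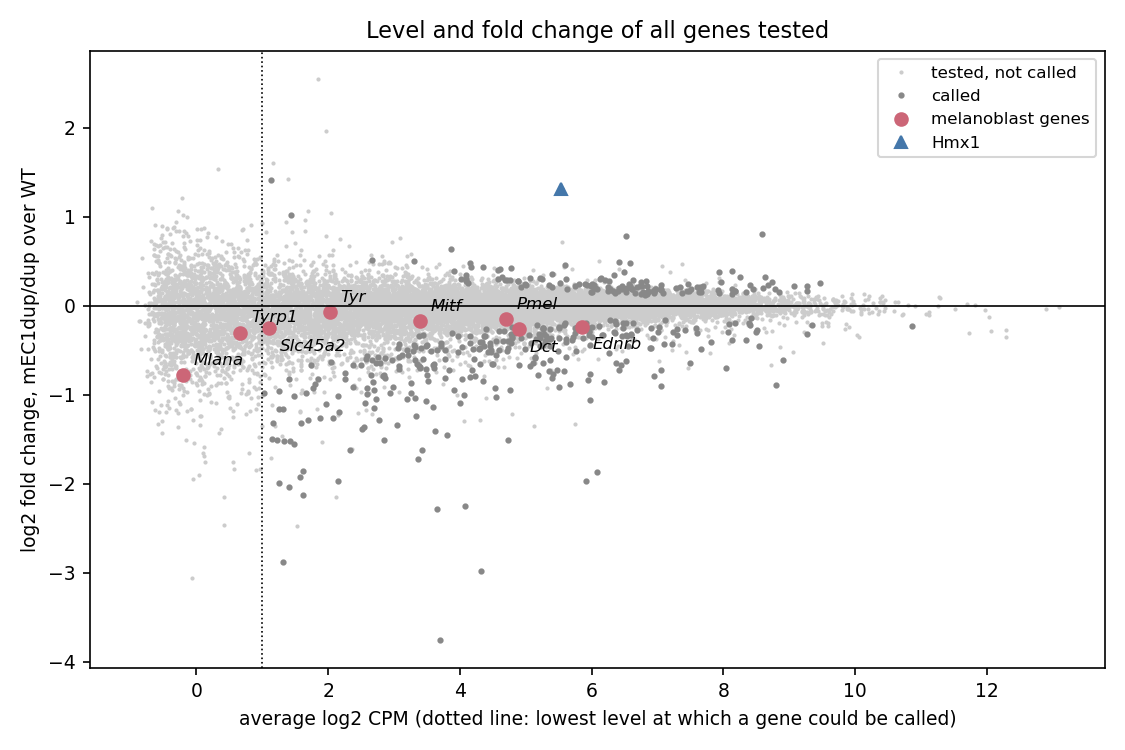
Each point is 1 of 16426 genes tested, by its average log2 CPM over the 10 libraries (x axis) and its log2 fold change in *mEC1dup/dup* over WT (y axis), with called genes in dark grey, the 8 melanoblast genes in red and *Hmx1* as a blue triangle. All 8 red points lie below 0, from -0.78 (*Mlana*) to -0.070 (*Tyr*), and none of them is a called gene.

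*Mitf* (chr6:97783950-97998323 on the plus strand of GRCm39, as are all positions given here) encodes the regulator of the lineage. Its counts were 191, 206, 234, 194 and 162 in WT replicates 1 to 5 and 181, 191, 165, 177 and 179 in *mEC1dup/dup* replicates 1 to 5. The groups overlapped, because WT replicate 5, at 8.97 CPM, was close to the lowest *mEC1dup/dup* library, at 8.96 CPM. The normalised level was 11.1 ± 1.49 CPM in WT and 9.81 ± 0.633 CPM in *mEC1dup/dup* as mean ± SD over 5 libraries each. The log2 fold change was -0.17 (SE 0.10, 95% interval -0.39 to 0.050, adjusted p = 0.460). With 1 library left out it ran from -0.24 (without WT replicate 5) to -0.10 (without WT replicate 3). The annotation gives this gene 18 transcripts with 11 different starts. Counts per gene add them up, so the melanocyte form of MITF was not separated from the forms used by mast cells and the retinal pigment epithelium.

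*Ednrb* (chr14:104052053-104081900, minus strand) encodes the endothelin receptor B, with which melanoblasts and other neural crest cells receive endothelin 3. It had 1069, 904, 870, 1477 and 1266 counts in WT and 996, 893, 896, 1039 and 1021 in *mEC1dup/dup*. WT replicates 4 and 5 were the highest of all libraries, WT replicate 1 also lay above the *mEC1dup/dup* range, and WT replicates 2 and 3 lay inside it. Levels were 62.5 ± 13.9 and 53.2 ± 3.96 CPM, a log2 fold change of -0.23 (SE 0.12, 95% interval -0.50 to 0.034, adjusted p = 0.388). With 1 library left out, the log2 fold change ran from -0.31 (without WT replicate 3) to -0.12 (without WT replicate 4). WT replicate 4 also had the highest summed level of the Schwann cell markers (352 CPM, against 229 to 288 CPM in the other WT libraries). The same held for the neuron markers (484 against 32.7 to 167 CPM). *Ednrb* is expressed by glia and mesenchyme as well as by melanoblasts, and their part in its level was not tested.

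Tyrosinase starts melanin synthesis from tyrosine, and DCT and TYRP1 act on later intermediates of the same pathway. *Dct* (chr14:118250202-118289656, minus strand) is the earliest of these genes in melanoblasts and is widely used to see them in embryos. It had 650, 660, 641, 473 and 484 counts in WT and 435, 484, 511, 548 and 496 in *mEC1dup/dup*. WT replicates 1 to 3, at 36.0 to 37.6 CPM, stood above every other library, whereas WT replicates 4 and 5, at 26.2 and 26.8 CPM, fell inside the *mEC1dup/dup* range of 24.9 to 29.6 CPM. The means were 32.6 ± 5.61 CPM in WT and 27.1 ± 1.71 CPM in *mEC1dup/dup*. The log2 fold change was -0.26 (SE 0.10, 95% interval -0.49 to -0.040), and it did not pass the adjustment over all genes (adjusted p = 0.221). With each library left out in turn it ran from -0.34 to -0.21, the lowest adjusted p being 0.0605 without WT replicate 4.

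*Tyr* (chr7:87073979-87142720, minus strand), the gene of tyrosinase, was the member with the smallest difference. Its counts were 60, 76, 94, 60 and 74 in WT and 78, 79, 46, 89 and 61 in *mEC1dup/dup*. The lowest library and the second highest were both *mEC1dup/dup*, and the groups overlapped throughout. Levels were 4.07 ± 0.774 and 3.88 ± 0.955 CPM (log2 fold change -0.070, SE 0.19, 95% interval -0.49 to 0.35, adjusted p = 0.899), and the sign turned to 0.038 without WT replicate 3 and to 0.052 without *mEC1dup/dup* replicate 3.

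*Tyrp1* (chr4:80752360-80769956, plus strand) was counted 22, 46, 35, 25 and 18 times in WT and 9, 37, 23, 30 and 22 times in *mEC1dup/dup*. WT replicate 2 was the highest library and *mEC1dup/dup* replicate 2 the next, while *mEC1dup/dup* replicate 1 was the lowest. With 1.63 ± 0.621 and 1.32 ± 0.565 CPM, the interval of the log2 fold change of -0.30 was the widest among the members (SE 0.34, 95% interval -1.03 to 0.43, adjusted p = 0.727). Expressed as a ratio of *mEC1dup/dup* to WT, it runs from 0.490 to 1.34. Single libraries moved the log2 fold change of *Tyrp1* to -0.078 (without WT replicate 2), -0.100 (without *mEC1dup/dup* replicate 1) and -0.51 (without *mEC1dup/dup* replicate 2).

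MITF is known to bind the E-box CATGTG in the promoters of the pigment enzyme genes, within a longer element called the M-box, so the 250 bases before the start of each member's principal transcript were searched for CATGTG on both strands. It was found in *Tyr*, *Tyrp1*, *Dct* and *Mlana* and not in the windows of *Mitf*, *Ednrb*, *Pmel* and *Slc45a2*. Of 21770 promoters of protein-coding genes, 2276 (10.5%) held it. The sites are printed from the GRCm39 genome in the direction of transcription, with the matching letters in capitals, because they show what the enzyme promoters have in common. The match ends 16 bases before the start in *Tyr*, 33 in *Tyrp1*, 206 in *Dct* and 237 in *Mlana*. The *Mlana* match reads CACATG because it lies on the other strand.
Tyr promoter, chr7:87142724-87142753, minus strand: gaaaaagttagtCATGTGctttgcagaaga
Tyrp1 promoter, chr4:80752392-80752421, plus strand: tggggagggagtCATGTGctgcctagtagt
Dct promoter, chr14:118289791-118289820, minus strand: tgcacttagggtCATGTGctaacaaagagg
Mlana promoter, chr19:29674974-29674999, plus strand: acattagaCACATGataaaaatactt

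The first 2 sites share the 11 letters AGTCATGTGCT, which were found in 5 of the 21770 promoters (0.023%), *Tyr* and *Tyrp1* being 2 of them. The shorter run TCATGTG, which contains CATGTG, was found in 632 promoters (2.9%), among them all 4 of these. CACGTG, the other E-box that MITF is known to bind, occurred in 1363 promoters (6.26%) and in none of the 8 members. The *Mitf* window lies before the most upstream of its 11 starts, and the promoter of the melanocyte form was not searched. A match of letters is a description and no measure of binding. The genes with CATGTG had log2 fold changes of -0.070 (*Tyr*), -0.30 (*Tyrp1*), -0.26 (*Dct*) and -0.78 (*Mlana*), and those without it, *Mitf* left out, -0.23 (*Ednrb*), -0.15 (*Pmel*) and -0.25 (*Slc45a2*), so that the ranges overlapped.

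PMEL forms the fibrils on which melanin is laid down. *Pmel* (chr10:128540064-128556107, plus strand) had 560, 502, 562, 376 and 424 counts in WT and 405, 402, 472, 543 and 417 in *mEC1dup/dup*. As with *Dct*, WT replicates 1 to 3 were high and WT replicates 4 and 5 were not, and *mEC1dup/dup* replicate 4 reached the level of the higher WT libraries. Levels were 27.2 ± 5.00 and 24.6 ± 2.97 CPM (log2 fold change -0.15, SE 0.12, 95% interval -0.41 to 0.11, adjusted p = 0.609). The difference in *Pmel* was -0.076 without WT replicate 1, -0.089 without WT replicate 3 and -0.23 without WT replicate 4. Of the exonic bases of *Pmel*, 19.3% overlap *Dgka* and 1.48% overlap *Cdk2*, both on the opposite strand, and the sources used here do not say whether counting used strand, so reads from these stretches cannot be assigned with certainty.

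*Mlana* (chr19:29674900-29686034, plus strand) was the only member whose groups did not overlap, and also the member with the fewest counts. It had 18, 20, 19, 17 and 12 counts in WT and 8, 11, 8, 12 and 12 in *mEC1dup/dup*. In raw counts WT replicate 5 tied with *mEC1dup/dup* replicates 4 and 5, and the groups separated only after scaling, at 0.665 CPM for the lowest WT library and 0.650 CPM for the highest *mEC1dup/dup* library. Over all genes tested, 5.07% had groups that did not overlap, 2.75% with *mEC1dup/dup* lower and 2.33% with it higher. Mean levels were 0.964 ± 0.178 and 0.559 ± 0.105 CPM, with a log2 fold change of -0.78 (SE 0.24, 95% interval -1.30 to -0.25, adjusted p = 0.120). The adjusted p was 0.0933 to 0.960 over the alternatives, and the average of -0.20 log2 CPM would have kept the gene from being called at any p. At these counts, chance in counting alone gives a coefficient of variation of 24.1% in WT and 31.3% in *mEC1dup/dup*, more than the 18.5% and 18.8% observed.

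*Slc45a2* (chr15:11000803-11029319, plus strand) encodes a melanosome membrane transporter that keeps the organelle's pH suited to tyrosinase. It had 44, 44, 50, 35 and 25 counts in WT and 20, 32, 44, 42 and 32 in *mEC1dup/dup*. The highest 3 libraries were WT replicates 1 to 3, but WT replicate 5 was second lowest. Levels were 2.22 ± 0.564 and 1.86 ± 0.496 CPM (log2 fold change -0.25, SE 0.24, 95% interval -0.77 to 0.26, adjusted p = 0.666). It was -0.12 without *mEC1dup/dup* replicate 1, -0.16 without WT replicate 3 and -0.38 without WT replicate 5.

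**Figure D2:**
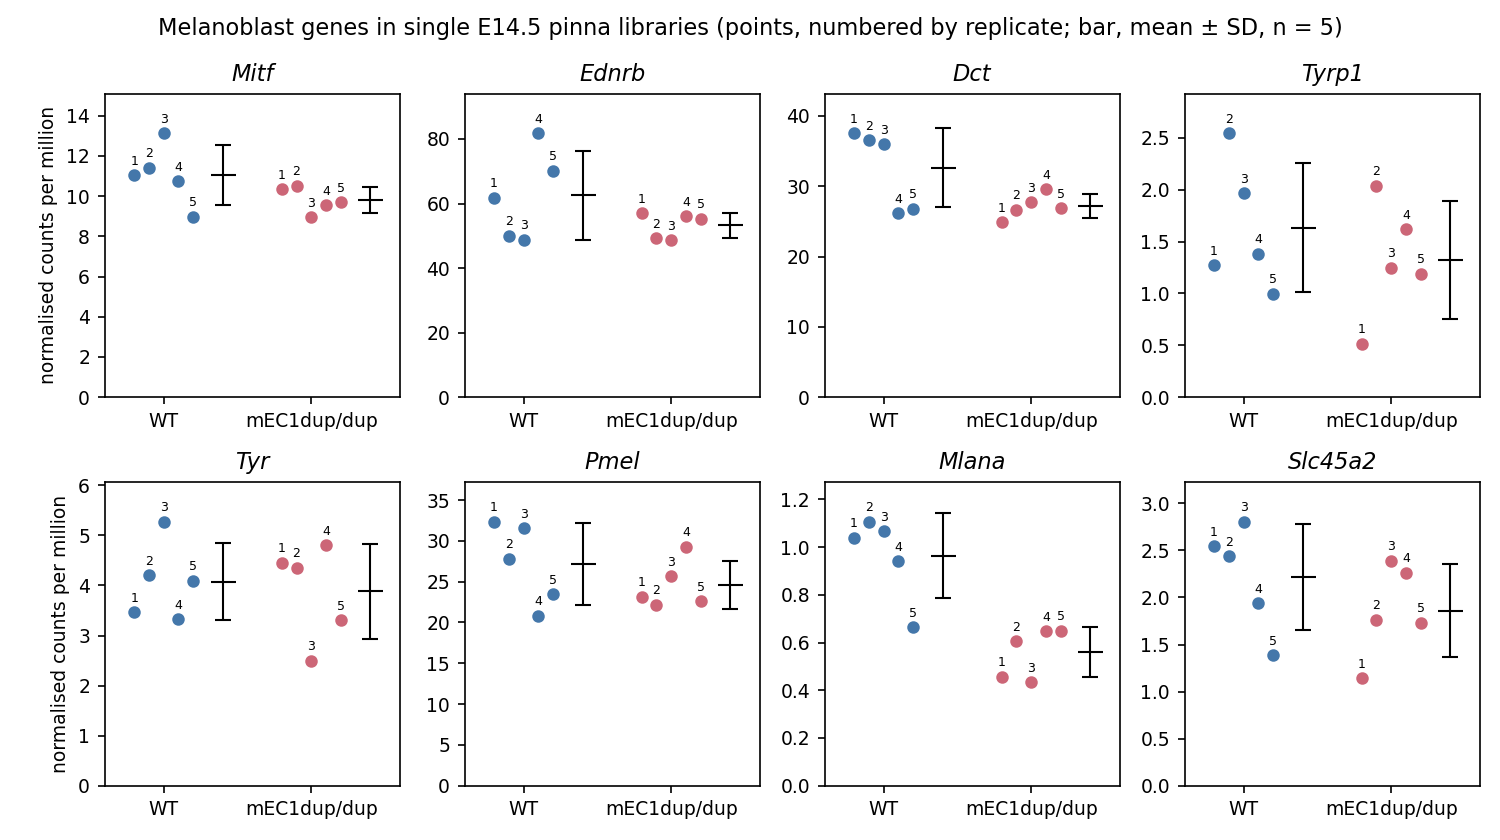
Normalised CPM (y axis of each panel, from 0) of the 8 melanoblast genes in the 5 WT (blue) and 5 *mEC1dup/dup* (red) libraries, each point numbered by its replicate, with the mean ± SD beside it. *Mlana* is the 1 gene with no overlap (0.665 CPM and above against 0.650 CPM and below), and in *Dct* the 3 high WT libraries stand apart from the other 7.

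Per kilobase of the principal transcript, the members fell into a high and a low group. In WT, *Ednrb* (15.5 ± 3.45 CPM per kb), *Dct* (14.8 ± 2.55) and *Pmel* (12.7 ± 2.34) led, and these neighbours did not differ beyond their spread. *Mitf* followed at 2.23 ± 0.300 CPM per kb, with no library in common with the range of *Pmel* above it or of *Mlana* below it. *Mlana* (1.06 ± 0.197), *Slc45a2* (0.744 ± 0.189), *Tyr* (0.674 ± 0.128) and *Tyrp1* (0.595 ± 0.226) came last, each overlapping its neighbour. Tyrosinase, the enzyme that pigment cannot be made without, was thus among the lowest members at this stage. The *mEC1dup/dup* order was the same for the first 4 genes, and *Mlana* went from the fifth to the seventh place, at 0.617 ± 0.116 CPM per kb. Taking the length of all annotated exons instead, *Dct* came after *Pmel*, at 5.53 ± 0.952 CPM per kb in WT, since its annotated exons are far longer than its principal transcript. On that length *Mitf* (0.884 to 1.29 CPM per kb in WT) overlapped *Mlana* (0.568 to 0.946), and *Tyr* came after *Tyrp1*.

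Several genes of the melanosome were high, or low, in the same libraries. Counting *Dct*, *Pmel*, *Tyr*, *Tyrp1*, *Mlana* and *Slc45a2* against the median of their own genotype, WT replicates 1, 2 and 3 were above it in 3, 4 and 5 of these 6 genes, and WT replicates 4 and 5 were above it in 0 of 6. In *mEC1dup/dup*, replicate 4 was above it in 6 of 6, replicate 3 in 3 of 6 and replicates 1, 2 and 5 in 1 of 6 each. The summed level of the 6 genes, most of it from *Dct* and *Pmel*, was 74.6 to 78.6 CPM in WT replicates 1 to 3, 54.6 and 57.4 CPM in WT replicates 4 and 5, and 54.6 to 68.2 CPM in *mEC1dup/dup*. The WT mean of 68.7 ± 11.7 CPM was therefore set by 3 of the 5 libraries, and the other 2 fell in the *mEC1dup/dup* range (59.3 ± 5.32 CPM).

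*Ednrb* ran the other way in WT. WT replicates 4 and 5, the lowest WT libraries in the summed level of the melanosome genes, had the highest *Ednrb*. In *mEC1dup/dup* the order was mixed. There replicate 1, the lowest in that sum, had the highest *Ednrb* (56.9 CPM), but replicate 4, the highest in that sum, came next (56.0 CPM). Over the 10 libraries, as deviations from genotype means, *Ednrb* had a Pearson r of -0.70 with the mean log2 CPM of the 6 melanosome genes. The value was 0.58 for *Mitf*, which like *Ednrb* is not part of that mean. The 6 genes that form the mean had values from 0.37 (*Tyr*) to 0.85 (*Tyrp1*). These values describe 10 libraries that differ in tissue makeup, and were not tested.

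The levels of the members relative to each other give a view that does not rest on the number of melanoblasts in a library, as far as their RNA comes from the same cells. Relative to *Dct* in the same library, the log2 ratio of *Mlana* was -5.09 ± 0.196 in WT and -5.62 ± 0.257 in *mEC1dup/dup*. The highest *mEC1dup/dup* library, at -5.37, was just below the lowest WT library, at -5.33. This ratio rests on the same 8 to 20 counts of *Mlana* per library. Counting error at that level (24.1% in WT and 31.3% in *mEC1dup/dup*) exceeds the gap. How often other genes separate in their ratio to *Dct* was not tested. *Pmel* lay close to *Dct* in both genotypes (-0.264 ± 0.0933 and -0.150 ± 0.107) and the groups overlapped. The ratios of *Tyr*, *Tyrp1*, *Slc45a2*, *Mitf* and *Ednrb* to *Dct* overlapped too.

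**Figure D3:**
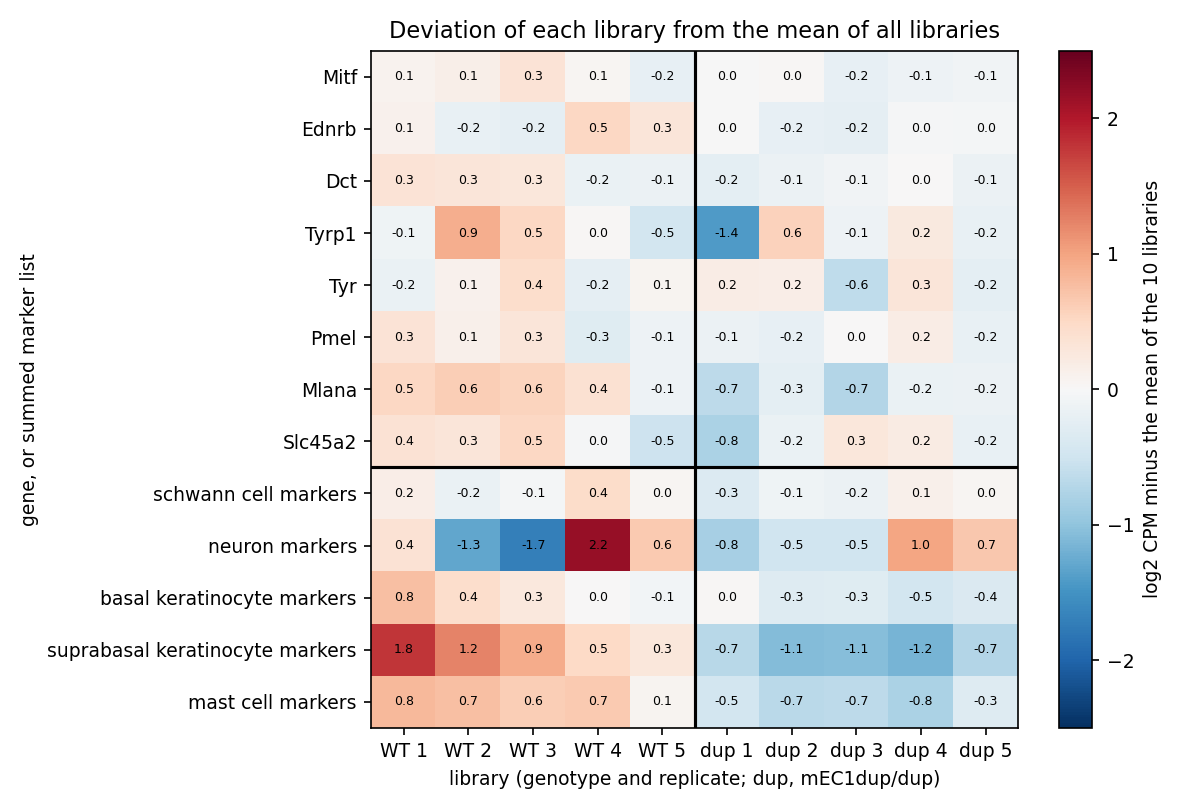
Rows are the 8 melanoblast genes and, under the line, the summed CPM of 5 cell type marker lists, columns are the 10 libraries, and colours and printed values give the log2 CPM minus the mean of the 10 libraries. *Dct* is above 0 in WT replicates 1 to 3 and below 0 in WT replicates 4 and 5, *Ednrb* is highest in WT replicate 4 together with the neuron and Schwann cell markers, and the suprabasal keratinocyte and mast cell rows are lower in every *mEC1dup/dup* library than in any WT library, which the basal keratinocyte row is not.

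Among 15466 genes with an average of at least 0 log2 CPM, those whose deviations were most like the mean of the 6 melanosome genes were *Gm42047* (r = 0.96), *Ddx27* (0.92), *Niban2* (0.92), *Vasn* (0.91) and *Sdc4* (0.91), over 10 libraries. None of these 5 genes is a pigment cell gene of the lists used here. *Slc24a5*, a cation exchanger of the melanosome, stood 24th with r = 0.86, *Gpnmb* 405th with 0.69, *Sox10* 2163rd with 0.43, *Kit* 2580th with 0.39, *Trpm1* 5089th with 0.18 and *Pax3* 8689th with -0.083. With so many genes and 10 libraries, high values arise in number, so the order is a description.

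Around the 8 members, 55 other genes of pigment cell signalling, transcription, melanosome proteins and melanosome transport were listed, and 54 were tested. Of these, 2 were called lower in *mEC1dup/dup*, beside 1.81% of all genes, and 0 were called higher, beside 0.834%. The median log2 fold change of the 54 genes was -0.021, with 30 of them below 0. The gene left untested was *Oca2*, which encodes a melanosome channel protein and had 0 to 4 counts in every library.

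Both called genes came from the list of melanosome proteins, where 9 of 10 were tested. *Slc7a11* encodes the cystine transporter needed for the yellow pigment pheomelanin, and it also serves glutathione synthesis in many other cells. It had 158, 166, 99, 93 and 79 counts in WT and 67, 62, 55, 79 and 60 in *mEC1dup/dup*, with WT replicates 1 and 2 far above the rest. It fell from 6.68 ± 2.30 to 3.55 ± 0.502 CPM (log2 fold change -0.91, SE 0.22, adjusted p = 0.0430). *Cd63* encodes a tetraspanin that sorts PMEL into melanosomes, though it is present in the endosomes of most cells and in mast cell granules. It had 6222 to 6671 counts in WT and 5713 to 6174 in *mEC1dup/dup*, and it fell from 360 ± 9.70 to 327 ± 5.04 CPM (log2 fold change -0.14, SE 0.031, adjusted p = 0.0361). Both calls sat close to the threshold, and both were lost when any one of WT replicates 1, 2 and 3 or *mEC1dup/dup* replicates 1, 2, 3 and 4 was left out. Without *mEC1dup/dup* replicate 5 the call of *Slc7a11* was lost and that of *Cd63* was not, and both held without WT replicate 4 or 5. With 1 library left out, the log2 fold change ran from -1.03 to -0.76 for *Slc7a11* and from -0.15 to -0.12 for *Cd63*. With all 10 libraries, *Slc7a11* lost its call with limma-voom (log2 fold change -0.85, adjusted p = 0.0728) and with the Xist covariate (-1.01, adjusted p = 0.423). With the embryonic globin share as a term its sign turned, at 0.78 (adjusted p = 0.919). *Cd63* lost its call with no filter on low counts (log2 fold change -0.13, adjusted p = 0.109) and with the replicate block (-0.14, adjusted p = 0.0519). It was also lost with the Xist term (-0.11, adjusted p = 0.523) and the globin term (-0.0042, adjusted p = 0.997). Among the fits with 1 library left out, both were lost in 7, and 6 of these called 0 of the 54 genes. The other, without *mEC1dup/dup* replicate 1, called 2 genes, *Kitl* among them.

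Of 12 signals and receptors, 0 were called by edgeR, and 2 had an unadjusted p under 0.05, a share near the 16.2% of all genes. These were *Kit*, the receptor that melanoblasts need to migrate and survive, and *Kitl*, its ligand. *Kit* had 547 to 711 counts in WT and 439 to 573 in *mEC1dup/dup*, with overlapping groups and a log2 fold change of -0.32 (SE 0.087, adjusted p = 0.0724). DESeq2's Wald test put it past the threshold, at an adjusted p of 0.0182, as did edgeR's test without WT replicate 5, at 0.0478. *Kitl*, made by keratinocytes and dermal cells, had a log2 fold change of -0.24 (SE 0.078, adjusted p = 0.126), and edgeR's test put it past the threshold with the replicate number as a block (adjusted p = 0.0158) or without *mEC1dup/dup* replicate 1 (adjusted p = 0.0228). *Edn3*, the ligand of the receptor that *Ednrb* encodes, had 541 to 685 counts in WT and 596 to 694 in *mEC1dup/dup* (log2 fold change 0.049, SE 0.074, adjusted p = 0.803). *Mc1r*, the melanocortin receptor, had at most 18 counts in any library.

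Of 13 transcription factors, 0 were called by edgeR, with 3 at an unadjusted p under 0.05, beside 16.2% of all genes. These were *Pax3* and *Tfap2a*, with values below 0, and *Lef1*, with a value above 0. *Sox10*, which acts on the *Mitf* promoter in melanoblasts and is shared with glia, had 1295 to 1572 counts in WT and 927 to 1853 in *mEC1dup/dup*, a log2 fold change of 0.018 (SE 0.12, adjusted p = 0.961). *Pax3*, its partner at that promoter, had 44 to 79 and 34 to 53 counts (log2 fold change -0.56, SE 0.20, adjusted p = 0.179). *Tfap2a*, which is shared with the epidermis, had a log2 fold change of -0.40 (SE 0.14, adjusted p = 0.162), and *Lef1*, a mediator of Wnt signals in many tissues, one of 0.23 (SE 0.086, adjusted p = 0.205). Of 20 genes of melanosome biogenesis and transport, such as the Rab and BLOC genes, 0 were called and 2 had an unadjusted p under 0.05, a share below the 16.2% of all genes. These 2 went opposite ways, with log2 fold changes of -0.51 for *Rab38* and 0.19 for *Rab27a*. By DESeq2's Wald test 3 of the 54 genes were called (*Slc7a11*, *Cd63* and *Kit*) and by limma-voom 1 (*Cd63*), so that neither tool called a transcription factor or a gene of melanosome biogenesis.

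**Figure D4:**
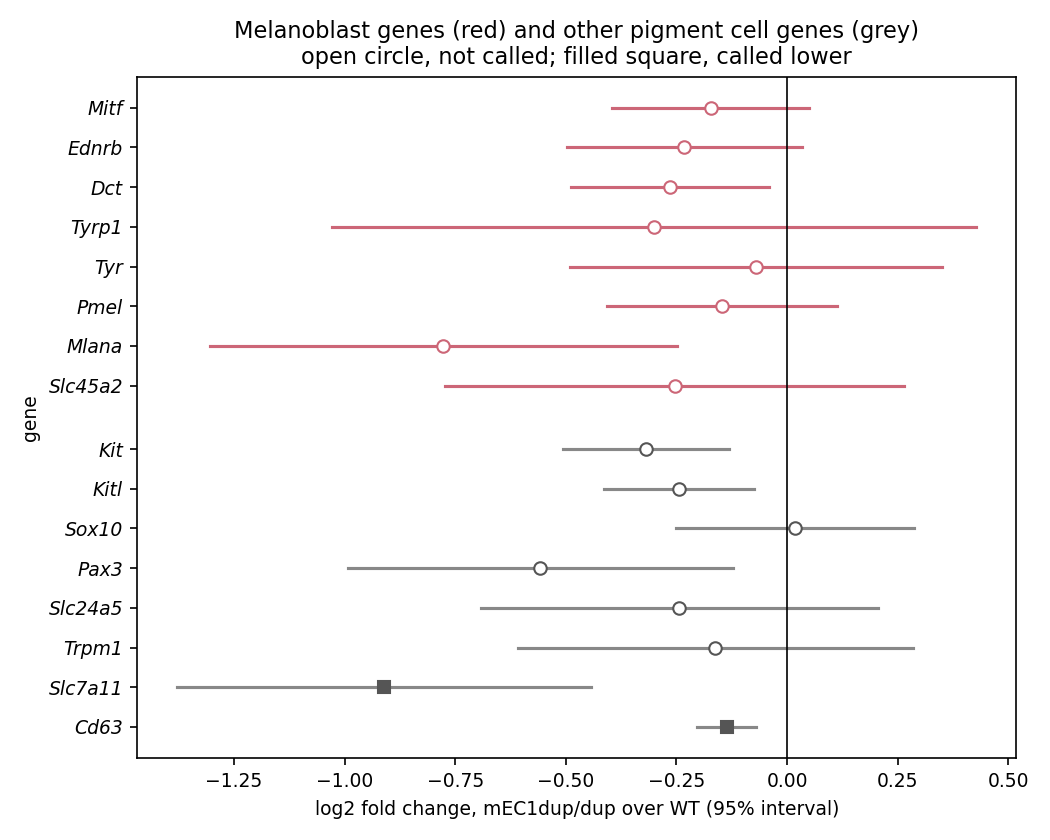
Log2 fold change in *mEC1dup/dup* over WT (x axis) with its 95% interval for the 8 melanoblast genes in red and 8 other pigment cell genes in grey, open circles for genes not called and filled squares for genes called lower. Only *Slc7a11* (-0.91) and *Cd63* (-0.14) are called, and among the red intervals those of *Dct* and *Mlana* do not reach 0.

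Markers of other cells that use these genes, or house them, were read from the same libraries. Over all genes tested, 1.81% were called lower and 51.2% were fitted below 0. Mast cells express *Mitf*, *Kit* and *Cd63*. Of their 7 markers, 6 were tested, all 6 were fitted below 0 and 4 fell (*Cpa3*, *Cma1*, *Tpsb2* and *Hdc*), with a summed level of 49.0 to 81.8 CPM in WT and 26.9 to 37.4 CPM in *mEC1dup/dup*, and *Fcer1a* had at most 2 counts. Melanoblasts reach the epidermis at about this stage, and of the 6 suprabasal keratinocyte markers 5 fell (summed level 155 to 440 CPM in WT and 56.7 to 78.3 CPM in *mEC1dup/dup*), as did 2 of the 6 basal markers, *Krt5* and *Krt14* (704 to 1249 and 535 to 758 CPM). The study names *Dmkn* and *Krtdap*, of the suprabasal list, among the results of its bulk RNA-seq. Their fall was thus already known and is no separate evidence. In WT the basal and suprabasal sums were highest in replicates 1 to 3, the libraries that were also highest in *Dct* and *Pmel*. Schwann cell precursors give rise to part of the melanoblasts, and of the 10 Schwann cell markers 8 were fitted below 0, with a median log2 fold change of -0.27, and 1 fell, *Mal*. Their summed levels overlapped (229 to 352 and 203 to 283 CPM). The part of these cells in the levels of the melanoblast genes was not tested.

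The retinal pigment epithelium also uses the melanosome genes. Of its 7 markers, *Rpe65* had 0 or 1 counts in every library and *Rgr* had 1 to 10, but *Ttr* had 296 and 291 counts in WT replicates 3 and 4 against 2 to 18 elsewhere, and *Otx2* (8 to 92 counts) and *Rlbp1* (125 to 193 counts) were detected in all 10 libraries. The summed level of the list was 28.8 and 34.8 CPM in WT replicates 3 and 4 and 11.4 to 17.5 CPM in the other 8 libraries. In the summed level of the 6 melanosome genes, WT replicate 3 was among the highest libraries (78.6 CPM) and WT replicate 4 among the lowest (54.6 CPM). The part of these markers' source in the result was not tested. Of the 7 markers 4 were tested and 0 were called by edgeR, with 0 at an unadjusted p under 0.05. Macrophage markers (7 of 7 tested) and neuron markers (5 of 5) had 0 called and 0 at an unadjusted p under 0.05, and endothelial markers (7 of 7) had 0 called and 1 at an unadjusted p under 0.05. All 5 neuron markers were fitted below 0, with a median log2 fold change of -0.60, as were 5 of the macrophage and 4 of the endothelial markers. The summed neuron levels overlapped (32.7 to 484 CPM in WT and 60.2 to 211 CPM in *mEC1dup/dup*). Of the 6 markers of dermal mesenchyme, *Dpt* and *Lum* fell, 2 others were fitted below 0 and 2 above it, *Twist1* (log2 fold change 0.15) and *Pdgfra* (0.077), and the summed levels overlapped.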

How the data were processed

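RNA of microdissected E14.5 pinna prominences was sequenced in 5 WT and 5 *mEC1dup/dup* libraries. The deposited table holds raw counts per gene, which the authors made with fastp, STAR on GRCm39 and featureCounts, with no normalization. The annotation release and use of strand are not given in the sources used here, and the labels name a NEBNext kit where the study's methods name a TruSeq kit. Symbols and positions came from GENCODE vM39 on GRCm39, which matched 49355 of 53465 genes. The 16426 genes that passed filterByExpr were scaled by TMM and fitted with edgeR 4.0.16 (glmQLFit, glmQLFTest) in R 4.3.3, with genotype as the only term and Benjamini-Hochberg adjustment over all of them. A gene was called where its adjusted p did not exceed 0.05 and its average log2 CPM was 1 or higher, the thresholds of the study's methods, which do not name the test. CPM values are normalised, and log2 CPM of single libraries used a prior count of 2. DESeq2 1.42.0 and limma 3.58.1 were alternatives. The fit was tested on simulated data. The study's methods state 5 independent biological replicates per genotype, and its reporting summary gives 5 independent embryos for WT and *mEC1dup/dup*. Among the *mEC1dup/dup* libraries, 1 had an intermediate *Xist* count (2096). P-values set the difference between genotypes against the spread between libraries within the genotypes. At 17461544 to 18462073 counts per library, genes with few counts are limited by counting error, and reads carry no molecular identifiers.

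The members and gene lists were chosen with earlier results of these data known. Named were the 8 members, *Hmx1*, each called gene of the pathway lists and the 5 genes most like the melanosome genes. *Kit*, *Kitl*, *Pax3*, *Sox10*, *Edn3*, *Mc1r*, *Slc24a5*, *Gpnmb*, *Trpm1* and *Oca2* were added for their roles, *Tfap2a*, *Lef1*, *Rab38* and *Rab27a* because they make up small counts, all with values known, and marker genes where a list's level is described. WT and *mEC1dup/dup* share replicate numbers in the labels, and the labels do not say what a number stands for. The study describes its mouse replicates as siblings taken from different litters, without tying a litter to a replicate number.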

Additional observations from a re-analysis of the deposited data

How the results depend on the processing

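Every one of the 21 alternatives called 0 of the 8 melanoblast genes, and all 8 kept their direction under the other normalizations, DESeq2's Wald test, limma-voom, the Xist covariate and the replicate block. *Mlana* and *Tyrp1* had no value where 10 counts were asked of every library. With the embryonic share of globin counts as a covariate, which does not overlap between genotypes, the median log2 fold change of the members was 0.45, and values turned to 0.36 for *Mitf*, 0.43 for *Tyr*, 0.81 for *Dct*, 1.08 for *Pmel*, 0.47 for *Mlana*, 0.97 for *Slc45a2*, 0.78 for *Slc7a11*, 0.10 for *Kit*, 0.041 for *Kitl*, 0.97 for *Slc24a5* and 0.22 for *Trpm1*, while *Ednrb* moved to -0.87, *Tyrp1* to -0.029, *Pax3* to -0.12 and *Cd63* to -0.0042. *Hmx1* itself went from 1.31 to 0.34 in that fit (adjusted p = 0.921 in edgeR's test). The fit then called 0 genes in all, and the Xist covariate left 3. Leaving out 1 library at a time, *Tyr* turned to 0.038 (without WT replicate 3) and 0.052 (without *mEC1dup/dup* replicate 3), and the members' median ran from -0.28 to -0.16. *Sox10* turned to -0.0062 with limma-voom, -0.0016 with the replicate block, -0.0097 without WT replicate 2, -0.073 without *mEC1dup/dup* replicate 4 and -0.0026 without *mEC1dup/dup* replicate 5, in a range of -0.073 to 0.14 with 1 library left out. The cause was not tested.

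Of the 54 other pigment cell genes, 1 was called with limma-voom, 1 with no filter on low counts, 0 with either covariate and 0 to 3 with 1 library left out, against 2 in the fit reported. Over all genes, 434 were called, against 812 at an adjusted p of at most 0.1, 831 with DESeq2's Wald test, 687 with the replicate block and 154 to 655 with 1 library left out. Between genotypes, deviations of libraries of the same number had r of -0.0558 to 0.345, over 0.1 in 4 of 5 pairs. Their mean was 0.162, against -0.0403 for libraries of different numbers, and 2 of the 5 correlated best with their own number. What a number stands for is not stated, and a factor shared by number was not tested. The numbers were not taken to pair the libraries, and the replicate block is given as an alternative. In the block *Kitl* had an adjusted p of 0.0158 and *Cd63* lost its call.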
